A study of Rattus norvegicus with 30 samples.

Results

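The TAM receptors and their bridging ligands are 5 genes: the receptors Axl, Mertk and Tyro3 and the ligands Gas6 and Pros1. They were taken by gene symbol from the platform's annotation, with 1 probe set for each gene, and are 5 of 14506 named genes. All 5 were among the 11675 genes tested, although Tyro3 passed the filter on low values through 4 arrays only. TAM receptors are receptor tyrosine kinases that cells of the macrophage lineage use to bind and take up dying cells. Gas6 and protein S, the product of Pros1, bind phosphatidylserine on the dying cell with a vitamin K dependent domain and bind the receptor with the other end, so that they bridge the 2 cells. Mertk is known as a receptor of resting microglia and Axl as one that inflammatory signals raise, and receptor signalling dampens cytokine and interferon responses.

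Microglia, the resident macrophages of the brain, had been isolated from male rats, and their RNA was profiled on 30 Affymetrix Rat Gene 1.0 ST arrays. The stroke rats had a middle cerebral artery closed with a monofilament for 75 min under 1.2% isoflurane. The 10 groups of 3 arrays were sham rats, the contralateral (opposite) hemisphere and the ipsilateral (injured) hemisphere at 3 days after stroke, and both hemispheres at 14 days, each in rats of 3 and of 12 months of age. The design follows microglial expression over time after stroke and compares it between the ages. No group carried a transgene or a drug treatment beyond the anaesthetic, as far as the labels say. The labels conflict on the strain, with Wistar Kyoto in one field and spontaneously hypertensive rats in another. The hemisphere taken from sham rats and the way the cells were isolated are not given in the sources used here. Sham samples carry no day either, so the same sham group of an age stands against both days. The 24 stroke samples came from 12 animals with both hemispheres each. The 6 sham samples are not said to be separate animals, so p-values against sham measure only the spread between these samples.

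Values are log2 expression, as deposited. Over an array, the standard deviation was 1.79 to 1.93 where stroke rats were 3 months old and 1.94 to 2.05 elsewhere, and the array medians ran from 5.06 to 5.24. The sample codes carry a number of unstated meaning that is shared by the 2 hemispheres of a comparison. At 3 months it differs between sham, day 3 and day 14, and it differs between the ages, so there a group cannot be told apart from its number. Of 16 microglial markers, 13 were tested, and their mean lay between 9.50 and 10.35 on all arrays. Differences are called at an adjusted p under 0.05 in limma (Benjamini-Hochberg over the 11675 genes). Fewer cells of a type and less RNA per cell cannot be told apart in such bulk samples.

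Axl and Mertk were the receptors that moved between the hemispheres, in opposite directions, and their promoters are shown because the 2 genes differ so. RefSeq's promoter table (GRCr8) gives 1 start for each gene, and the 250 bases before it are shown 5′ to 3′ on the gene's strand, with CpG dinucleotides in capitals. That start is not always the outer bound of the gene's record in the same build: it lies 114 bases inside the record for Axl, 638 for Mertk, 435 for Tyro3, 0 for Gas6 and 989 for Pros1, so the stretch of Axl lies in part, and that of Mertk wholly, within the recorded gene. The stretch of Axl is chr1:90424010-90424259 on the minus strand, with 7 CpG and 61.6% G or C. That of Mertk is chr3:136392324-136392573 on the plus strand, with 22 CpG and 68% G or C.
Axl: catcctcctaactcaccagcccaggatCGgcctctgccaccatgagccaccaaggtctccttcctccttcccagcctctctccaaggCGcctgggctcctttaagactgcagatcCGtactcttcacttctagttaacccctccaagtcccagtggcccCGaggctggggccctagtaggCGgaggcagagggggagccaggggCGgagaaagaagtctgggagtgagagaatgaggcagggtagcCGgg
Mertk: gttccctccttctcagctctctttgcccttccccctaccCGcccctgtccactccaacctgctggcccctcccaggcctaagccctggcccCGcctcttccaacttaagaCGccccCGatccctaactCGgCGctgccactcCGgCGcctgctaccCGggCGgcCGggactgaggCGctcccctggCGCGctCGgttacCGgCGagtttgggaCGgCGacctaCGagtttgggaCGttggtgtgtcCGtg
Over 300 bases (250 before and 50 after the table's start), the 5 windows held 11 CpG (Axl), 27 (Mertk), 49 (Tyro3), 26 (Gas6) and 19 (Pros1), against a median of 7 over 33469 promoters of that length. Their G or C share was 63% for Axl, 67.3% for Mertk, 81.3% for Tyro3, 65.3% for Gas6 and 69% for Pros1, against a median of 51.7%. Each motif was searched on both strands. The core of the interferon-stimulated response element (GAAA, any 2 bases, GAAA) was in none of the 5 and in 3.92% of all promoters. The AP-1 site (TGANTCA) was in that of Tyro3 and in 7.33% of all. The liver X receptor repeat (AGGTCA, any 4 bases, AGGTCA) was in none of the 5 and in 0.00598% of all. A match is only a match of letters in this window.

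Axl rose and Mertk fell in the injured hemisphere at both times and both ages, Gas6 rose at day 14, Pros1 fell in 3 of the 4 comparisons and Tyro3 was not called. At 3 months, 3 of the 5 genes were called on day 3, with 20.4% of all genes called, 11.5% higher and 8.95% lower. On day 14, 3 were called there, with 20.3% of all genes called, 13.2% higher and 7.09% lower. At 12 months, 3 were called on day 3, with 28.7% of all genes called, 18.7% higher and 10.0% lower. On day 14, 4 were called, with 16.8% of all genes called, 10.9% higher and 5.94% lower. Of all genes, 4.87% were higher in all 4 comparisons, as Axl was, and 2.11% were lower in all 4, as Mertk was. These 4 comparisons share no arrays.

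**Figure D1:**
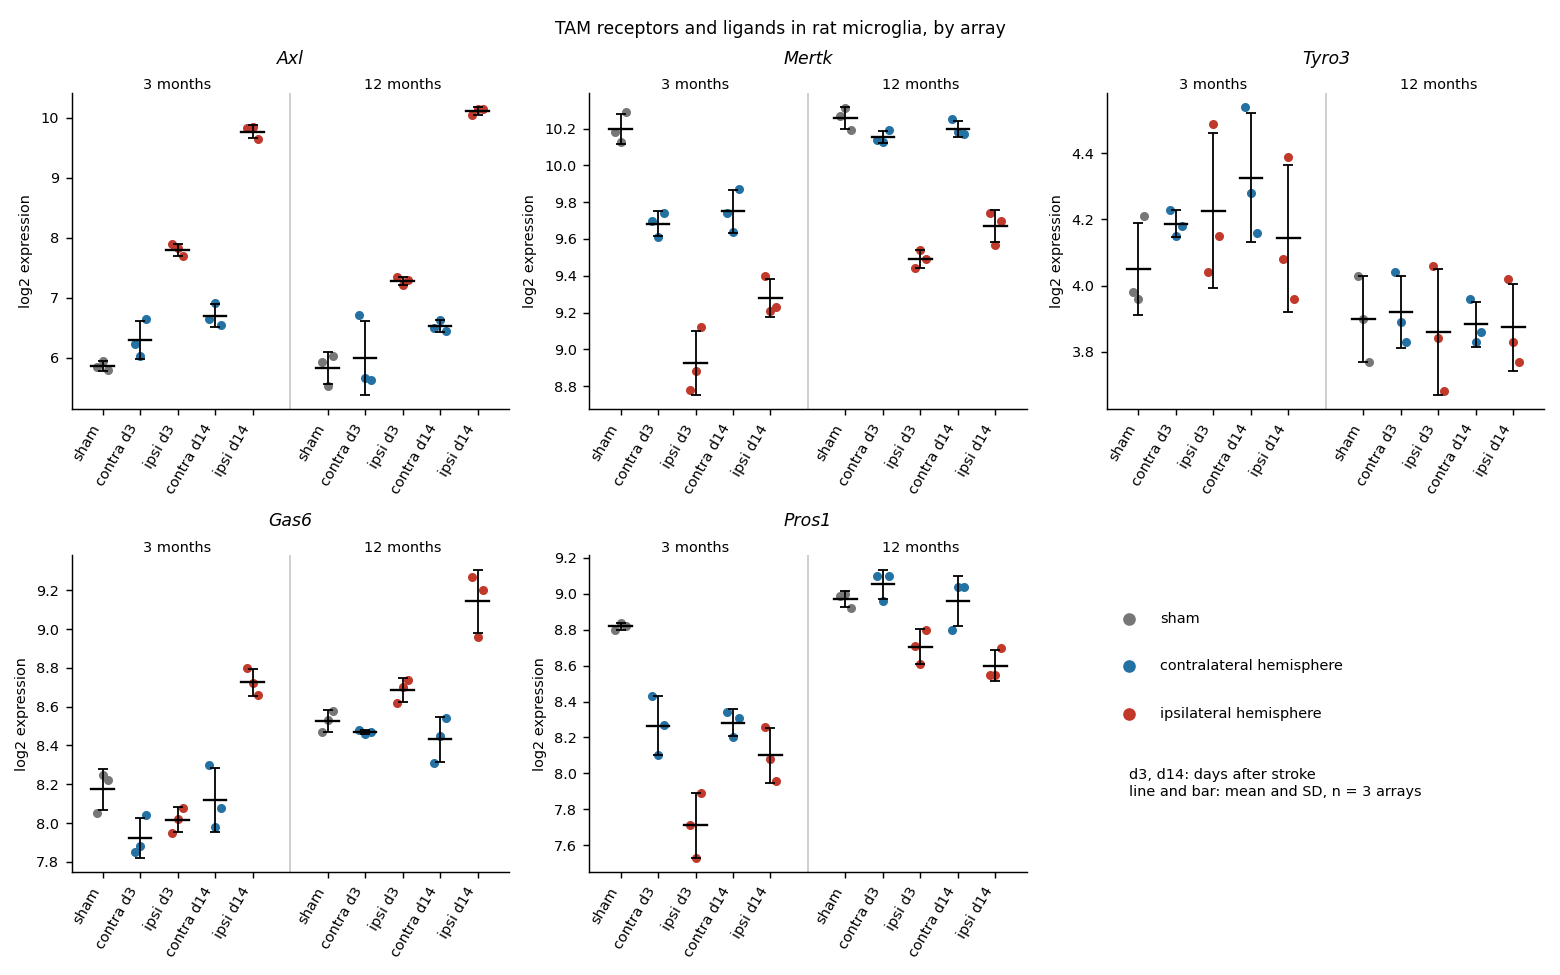
Log2 expression of Axl, Mertk, Tyro3, Gas6 and Pros1 on each of the 30 arrays, by group; points are arrays, lines and bars are the mean and SD of 3 arrays, and each panel has its own axis. Axl is highest in the ipsilateral hemisphere on day 14, with group means of 9.77 at 3 months and 10.11 at 12 months, while Mertk is lowest within each age in the ipsilateral hemisphere on day 3.

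Axl was lower in sham microglia and in the opposite hemisphere than in the injured hemisphere, where it climbed from day 3 to day 14. In 3-month rats, the sham arrays read 5.84, 5.95 and 5.79. The day 3 contralateral arrays read 6.22, 6.03 and 6.65, and the ipsilateral arrays 7.89, 7.82 and 7.69. The day 14 contralateral arrays read 6.65, 6.91 and 6.54, and the ipsilateral arrays 9.82, 9.84 and 9.64. Every ipsilateral array lay above every contralateral and sham array, and the day 14 ipsilateral arrays lay above those of day 3. In 12-month rats, the sham arrays read 5.93, 5.53 and 6.03. At 3 days the contralateral arrays read 6.71, 5.66 and 5.62, and the ipsilateral arrays 7.34, 7.21 and 7.29. At 14 days the contralateral arrays read 6.50, 6.63 and 6.45, and the ipsilateral arrays 10.04, 10.15 and 10.15. The groups separated in the same way at this age, with 1 contralateral array of day 3, replicate 1, standing about 1 log2 unit above the other two.

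The ipsilateral excess of Axl on day 3 was 1.50 ± 0.18 (log2, SE, n = 3), or 2.82-fold, at 3 months (limma, adjusted p = 3.7e-07). At 12 months it was 1.28 ± 0.18, or 2.43-fold (limma, adjusted p = 2.6e-06), and without contralateral replicate 1 it was 1.64. On day 14 the excess was 3.07 ± 0.18, or 8.38-fold, at 3 months (limma, adjusted p = 2.2e-13). It was 3.58 ± 0.18, or 12-fold, at 12 months (limma, adjusted p = 6.6e-15). Ordered by log2 difference, Axl was gene 88, 9, 169 and 2 of 11675 from the top (3 months day 3 and day 14, then 12 months). The excess was positive in 12 of 12 animals and ran from 0.63 to 3.69. Against sham, the ipsilateral level was 1.94 higher on day 3 and 3.91 higher on day 14 at 3 months. It was 1.45 and 4.28 higher at 12 months, the last being 19.5-fold. Each of these 4 comparisons with sham was called, and within an age they share the sham arrays.

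The hemisphere difference of Axl was larger on day 14 than on day 3 by 1.57 ± 0.26 at 3 months (limma interaction, adjusted p = 3.6e-04). It was larger by 2.30 ± 0.26 at 12 months (limma interaction, adjusted p = 5.2e-07). In this comparison 2 of the 5 genes, Axl and Gas6, were called higher at each age, with 2.57% of all genes called higher at 3 months and 1.75% at 12 months. Of all genes, 0.677% were called so at both ages, and 0.137% were also higher in all 4 hemisphere comparisons, as Axl was. Within the ipsilateral hemisphere, Axl was 1.97 ± 0.18 higher on day 14 than on day 3 at 3 months (limma, adjusted p = 5.3e-09) and 2.84 ± 0.18 higher at 12 months (limma, adjusted p = 3.9e-13). The difference of this effect between the ages was not called: 12 minus 3 months was -0.21 on day 3 (95% interval -0.74 to 0.31). On day 14 it was 0.52, with an interval of -0.01 to 1.04 and an adjusted p of 0.57 in limma.

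**Figure D2:**
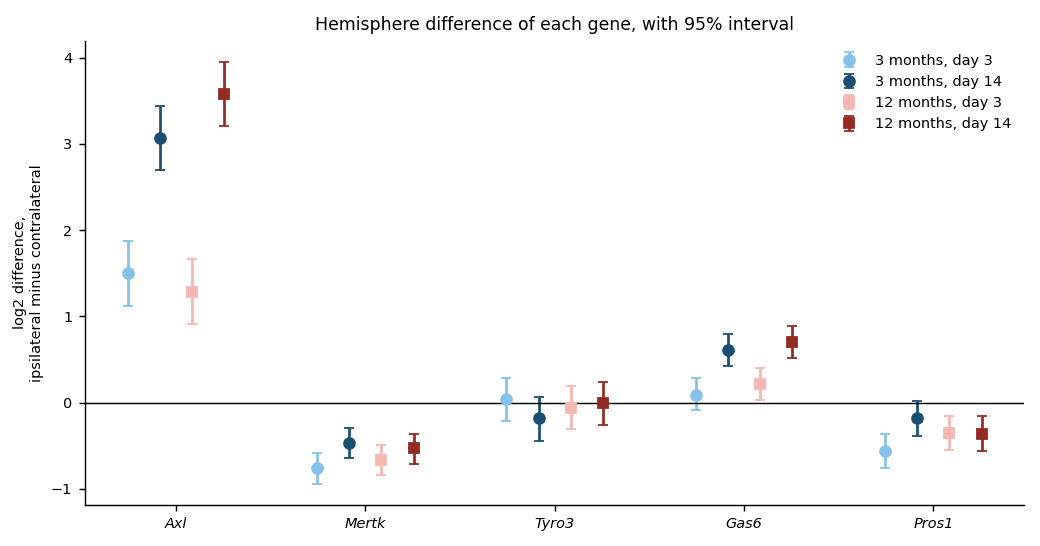
Log2 difference of the ipsilateral minus the contralateral hemisphere for each gene, with 95% intervals of the limma model (n = 3 arrays a group); colours and symbols give age and day. Axl lies at 1.50 and 1.28 on day 3 and at 3.07 and 3.58 on day 14, Mertk lies below 0 in all 4 comparisons, and the intervals of Tyro3 include 0.

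Mertk went the other way, with its lowest levels at each age in the injured hemisphere on day 3. At 3 months the sham arrays read 10.18, 10.13 and 10.29. Contralateral arrays of day 3 read 9.70, 9.61 and 9.74, and the ipsilateral arrays 8.78, 8.88 and 9.12. Contralateral arrays of day 14 read 9.74, 9.64 and 9.87, and the ipsilateral arrays 9.40, 9.21 and 9.23. No ipsilateral array reached a contralateral one, and no contralateral array reached a sham one. At 12 months the sham arrays read 10.27, 10.31 and 10.19. The day 3 contralateral arrays read 10.14, 10.13 and 10.19, and the ipsilateral arrays 9.44, 9.54 and 9.49. The day 14 contralateral arrays read 10.25, 10.18 and 10.17, and the ipsilateral arrays 9.74, 9.57 and 9.70. The ipsilateral arrays stood apart again, while the contralateral arrays were close to sham.

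The ipsilateral minus contralateral difference of Mertk on day 3 was -0.76 ± 0.09 at 3 months (limma, adjusted p = 1.0e-07) and -0.67 ± 0.09 at 12 months (limma, adjusted p = 5.2e-07). On day 14 it was -0.47 ± 0.09 at 3 months (limma, adjusted p = 1.5e-04) and -0.53 ± 0.09 at 12 months (limma, adjusted p = 2.9e-05). It was negative in 12 of 12 animals, from -0.92 to -0.34. Against sham, the ipsilateral difference was -1.27 on day 3 and -0.92 on day 14 at 3 months, and -0.77 and -0.59 at 12 months, all called. After quantile normalization the values at 3 months were -0.98 and -0.74, both called. In the ipsilateral hemisphere Mertk was 0.36 ± 0.09 higher on day 14 than on day 3 at 3 months (limma, adjusted p = 0.0021). At 12 months that difference was 0.18 ± 0.09, which limma did not call (adjusted p = 0.14). It was called after quantile normalization (0.27, limma adjusted p = 0.021) and, at the threshold, with array weights (0.20, limma adjusted p = 0.05). The hemisphere effect itself was not called different between the days, at 0.29 (95% interval 0.04 to 0.54) and 0.14 (-0.11 to 0.38).

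**Figure D3:**
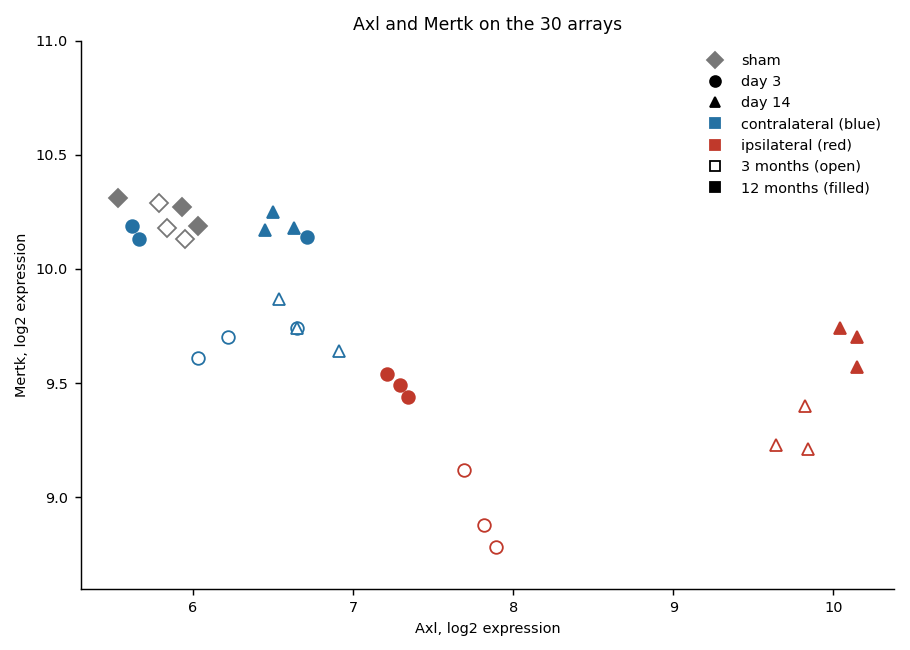
Log2 expression of Mertk (vertical) against Axl (horizontal) on the 30 arrays; colour gives sham or hemisphere, shape the day, and open or filled symbols the age. The ipsilateral arrays of day 3 lie lower and to the right of the sham and contralateral arrays of their age, and those of day 14 lie farther right, with Axl from 9.64 to 10.15.

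Tyro3, the third receptor, was near the low end of the arrays. Its values ran from 3.68 to 4.54, and 26 of the 30 arrays lay at or below the array's 30th percentile, which was 4.07 to 4.35. The 4 arrays above it were all from 3-month rats. Its group means lay between 3.86 and 4.33 with neighbours overlapping throughout, so no order of the groups can be read from them. The hemisphere differences were 0.04 (95% interval -0.21 to 0.29) and -0.18 (-0.44 to 0.07) on days 3 and 14 at 3 months. They were -0.06 and -0.01 at 12 months, with the sign of both depending on the scaling. Of all comparisons made, none called Tyro3 in limma; only contralateral minus sham on day 14 at 3 months had an unadjusted p under 0.05 (0.28, adjusted p = 0.071). That difference was called without sham replicate 3 (0.36, limma adjusted p = 0.042) or without contralateral replicate 3 (0.36, limma adjusted p = 0.038).

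Gas6, the ligand that binds all 3 receptors, rose late. At 3 months the sham arrays read 8.05, 8.25 and 8.22. At 3 days the contralateral arrays read 7.85, 7.88 and 8.04, and the ipsilateral arrays 7.95, 8.02 and 8.08. At 14 days the contralateral arrays read 8.30, 7.98 and 8.08, and the ipsilateral arrays 8.80, 8.72 and 8.66. The hemispheres overlapped on day 3 and were apart on day 14. At 12 months the sham arrays read 8.47, 8.53 and 8.58. Contralateral arrays of day 3 read 8.48, 8.46 and 8.47, and the ipsilateral arrays 8.62, 8.70 and 8.74. Contralateral arrays of day 14 read 8.31, 8.45 and 8.54, and the ipsilateral arrays 9.27, 8.96 and 9.20. At this age the hemispheres were apart on both days, by less on day 3.

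The ipsilateral excess of Gas6 on day 14 was 0.61 ± 0.09 at 3 months (limma, adjusted p = 1.1e-05) and 0.70 ± 0.09 at 12 months (limma, adjusted p = 1.0e-06). On day 3 it was 0.09 (95% interval -0.09 to 0.28) at 3 months and 0.22 ± 0.09 at 12 months (limma, adjusted p = 0.078), where it was called with centred arrays (0.26, adjusted p = 0.039) or array weights (0.21, adjusted p = 0.031). It was positive in 12 of 12 animals, from 0.04 to 0.95. The effect was larger on day 14 than on day 3 by 0.52 ± 0.13 at 3 months (limma interaction, adjusted p = 0.020) and by 0.49 ± 0.13 at 12 months (limma interaction, adjusted p = 0.020). At 3 months the call was lost with the animal as a fixed replicate block (0.52, adjusted p = 0.11), and also without day 3 contralateral replicate 3 (0.46, adjusted p = 0.064), day 14 contralateral replicate 2 (0.44, adjusted p = 0.061) or day 14 ipsilateral replicate 1 (0.48, adjusted p = 0.066). At 12 months it was lost without day 3 ipsilateral replicate 1 (0.46, adjusted p = 0.063), day 14 contralateral replicate 1 (0.43, adjusted p = 0.066), or day 14 ipsilateral replicate 1 (0.43, adjusted p = 0.063) or 3 (0.46, adjusted p = 0.055), and with the fixed replicate block it was kept (adjusted p = 0.049). Within the ipsilateral hemisphere, day 14 was above day 3 by 0.71 at 3 months and by 0.45 at 12 months, both called. Against sham, the day 14 ipsilateral level was 0.55 higher at 3 months and 0.61 higher at 12 months, both called. At 3 months that value was 0.73 after quantile normalization, and on day 3 it was -0.16 as deposited and 0.20 after quantile normalization, neither called by limma (adjusted p = 0.15 and 0.053).

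Pros1, which codes for protein S, a ligand of Tyro3 and Mertk that is also a cofactor in anticoagulation, was lower in the injured hemisphere. At 3 months the sham arrays read 8.80, 8.84 and 8.82. The day 3 contralateral arrays read 8.43, 8.10 and 8.27, and the ipsilateral arrays 7.71, 7.53 and 7.89. The day 14 contralateral arrays read 8.34, 8.20 and 8.31, and the ipsilateral arrays 8.26, 8.08 and 7.96. The sham arrays lay above the rest, and the hemispheres overlapped on day 14. At 12 months the sham arrays read 8.99, 9.0 and 8.92. At 3 days the contralateral arrays read 9.10, 8.96 and 9.10, and the ipsilateral arrays 8.71, 8.61 and 8.80. At 14 days the contralateral arrays read 8.80, 9.04 and 9.04, and the ipsilateral arrays 8.55, 8.55 and 8.70. Here the contralateral arrays overlapped with sham and the ipsilateral arrays lay below both.

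The hemisphere difference of Pros1 on day 3 was -0.56 ± 0.10 at 3 months (limma, adjusted p = 7.9e-05) and -0.35 ± 0.10 at 12 months (limma, adjusted p = 0.0076). On day 14 it was -0.36 ± 0.10 at 12 months (limma, adjusted p = 0.0097), a call lost without contralateral replicate 2 (-0.32, adjusted p = 0.053) or 3 (-0.32, adjusted p = 0.054). At 3 months on day 14 it was -0.18 ± 0.10 (limma, adjusted p = 0.20) as deposited and -0.26 (adjusted p = 0.022) after quantile normalization. It was negative in 12 of 12 animals, from -0.72 to -0.08. Against sham, the ipsilateral difference was -1.11 on day 3 and -0.72 on day 14 at 3 months, and -0.37 on day 14 at 12 months, all called. After quantile normalization the values at 3 months were -0.74 on day 3 and -0.51 on day 14, both called. On day 3 at 12 months it was -0.26 (limma, adjusted p = 0.034), a call lost without sham replicate 1 (-0.26, adjusted p = 0.08) or 2 (-0.25, adjusted p = 0.094), or ipsilateral replicate 1 (-0.27, adjusted p = 0.07) or 2 (-0.22, adjusted p = 0.13), and with centred arrays (-0.21, adjusted p = 0.12). From day 3 to day 14 the ipsilateral level was higher by 0.39 ± 0.10 at 3 months (limma, adjusted p = 0.0031) and changed by -0.10 at 12 months (limma, adjusted p = 0.52).

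Counted together, 3 of the 5 genes were called between the ipsilateral hemisphere and sham on day 3 at 3 months, with 56.8% of all genes called, and 4 on day 14, with 34.4%. At 12 months 3 were called on day 3, with 37.1% of all genes called, and 4 on day 14, with 20.0%. From day 3 to day 14 in the ipsilateral hemisphere, Axl, Mertk, Gas6 and Pros1 were called higher at 3 months, with 22.0% of all genes called higher. Axl and Gas6 were called higher at 12 months, with 6.53% of all genes called higher. With only 5 members, and shares of up to 56.8% of all genes called, these counts say little about the members.

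In the opposite hemisphere, 4 members were called against sham at 3 months on day 3, with 51.6% of all genes called, 14.4% higher and 37.2% lower. On day 14 it was 3, with 38.7% of all genes called, 10.4% higher and 28.4% lower. These values moved with the scaling: the median of all genes on day 3 was -0.10 as deposited, -0.17 with each array centred on its median and -0.03 after quantile normalization. Mertk stood at -0.51 on day 3 and -0.45 on day 14 as deposited, and at -0.22 (limma, adjusted p = 0.039) and -0.20 (limma, adjusted p = 0.084) after quantile normalization. Pros1 stood at -0.55 and -0.54 as deposited, and at -0.15 (limma, adjusted p = 0.14) and -0.24 (limma, adjusted p = 0.036) after quantile normalization. Gas6 on day 3 was called at -0.25 (limma, adjusted p = 0.024) as deposited and was 0.14 (limma, adjusted p = 0.21) after quantile normalization, so its direction was not settled. That call was also lost without sham replicate 2 (-0.21, adjusted p = 0.097) or 3 (-0.23, adjusted p = 0.072), or contralateral replicate 1 (-0.21, adjusted p = 0.086) or 2 (-0.23, adjusted p = 0.076). With the compared arrays alone (-0.25, limma adjusted p = 0.058) or the arrays of 1 age (-0.25, limma adjusted p = 0.052) it was lost as well.

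Axl was higher in the opposite hemisphere than in sham at 3 months under all 3 scalings, by 0.84 on day 14 as deposited (limma, adjusted p = 6.1e-04) and 0.95 after quantile normalization. On day 3 it was 0.44 higher (limma, adjusted p = 0.042), and 0.38 with centred arrays, where it missed the threshold (adjusted p = 0.091). That call also missed without contralateral replicate 3 (0.27, adjusted p = 0.26) or 1 (0.48, adjusted p = 0.053), or sham replicate 1 (0.43, adjusted p = 0.091), 2 (0.49, adjusted p = 0.054) or 3 (0.41, adjusted p = 0.1). The trend and robust options of limma gave 0.44 (adjusted p = 0.053), also short of a call. At 12 months limma called 0 of the 5 genes on either day, with 1.28% of all genes called on day 3 and 0.00857% on day 14. At an unadjusted p under 0.05 the counts were 0 and 1, the 1 being Axl on day 14. All 3 contralateral arrays then lay above all 3 sham arrays, by 0.70 on average (95% interval 0.33 to 1.07, limma adjusted p = 0.36). Between day 14 and day 3 in this hemisphere limma called 0 members at 3 months (10.1% of all genes called) and 0 at 12 months (1.06%), and at an unadjusted p under 0.05 there were 2 and 1. The 1 was Axl at 12 months, at 0.54 (adjusted p = 0.23) and, without day 3 contralateral replicate 1, at 0.89 (adjusted p = 5.0e-04).

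Age in the sham groups was called for Gas6 alone among the 5, with 7.47% of all genes called higher at 12 months. It was 0.35 ± 0.09 higher at 12 months (limma, adjusted p = 0.0097) and 0.29 without 3-month sham replicate 1 (limma, adjusted p = 0.07). Axl was at 5.86 ± 0.08 (SD, n = 3) at 3 months and 5.83 ± 0.27 at 12 months, and Mertk at 10.20 ± 0.09 and 10.26 ± 0.06, with 95% intervals of the difference of -0.40 to 0.35 and -0.12 to 0.23. Pros1 was 0.15 higher at 12 months (limma, adjusted p = 0.37) as deposited and 0.26 higher after quantile normalization (adjusted p = 0.038). For the hemisphere effect, limma called 0 members different between the ages on day 3 (1.58% of all genes called) and 0 on day 14 (0.00857%), with 0 at an unadjusted p under 0.05 on either day.

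Over the 10 group means, Mertk and Pros1 ran together (Pearson's r = 0.90), Axl and Mertk apart (r = -0.63), and Axl with Gas6 (r = 0.64). The 2 hemispheres of an age and day come from the same animals and share the sample number, and these values are a description. The correlations, here and below, were taken from the values as deposited. In the younger rats, Mertk and Pros1 in the opposite hemisphere lay nearer to sham after quantile normalization. How the correlations move with the scaling was not tested. Among 2649 genes whose group means spanned at least 1 log2 unit, the 5 most like Axl were Rab7b (r = 0.994), a small GTPase of late endosomes, Fabp3 (0.984), a fatty acid binding protein, Ak4 (0.979), a mitochondrial adenylate kinase, Il2rg (0.977), the common cytokine receptor gamma chain, and Sulf2 (0.969), a heparan sulfate sulfatase. Most like Mertk were Ccng2 (0.990), a cyclin, Abcb4 (0.987), a phospholipid transporter, Sall1 (0.987), a transcription factor of resting microglia, Acsl3 (0.986), an acyl-CoA synthetase, and Etv1 (0.984), a transcription factor. Most like Gas6 were Ankh (0.973), Trpm2 (0.969), Dph6 (0.966), Pgap1 (0.961) and Fgf2 (0.957). Most like Pros1 were Zmpste24 (0.997), Pdzd8 (0.993), RT1-M3-1 (0.993), Galnt7 (0.989) and Ccdc127 (0.982). Tyro3 spanned only 0.47 over its group means, and no genes are named for it.

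Of the genes that mature the ligands or bind beside them, 9 of 12 were tested. Higher and lower in the injured hemisphere were 2 and 1 on day 3 and 1 and 1 on day 14 at 3 months, and 2 and 2, then 2 and 1, at 12 months, with medians of -0.08, -0.01, -0.07 and -0.06 beside -0.01 for all genes in each. Beside the counts of this list and of those below, 11.5%, 13.2%, 18.7% and 10.9% of all genes were called higher. Called lower were 8.95%, 7.09%, 10.0% and 5.94% of all genes. Lgals3, which codes for galectin-3, a lectin described as a Mertk ligand, was higher by 3.83, 3.71, 3.69 and 3.18 (3 months day 3 and day 14, then 12 months). Furin, a proprotein convertase, was higher by 0.70 on day 3 at 3 months and by 1.00 and 0.73 at 12 months. None of the 3 tested vitamin K genes was called higher by limma: Vkorc1, the epoxide reductase subunit, was at -0.56 and -0.42 on day 3, both called, and Ggcx, the carboxylase of Gas6 and protein S, was at -0.52 on day 3 at 12 months. Of the proteases that shed the receptors and their regulators, 4 of 5 were tested. At 12 months on day 3, 1 was higher (Adam17, 0.29) and 1 lower (Rhbdf1, -0.39), and limma called none in the other comparisons of hemispheres.

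Signalling and feedback genes came next. Of 16 tested among 20, those higher and lower were 2 and 0, 3 and 1, 5 and 2, and 2 and 1 in the same order of comparisons, with medians of 0.15, 0.13, 0.10 and 0.04. Socs3, a cytokine signalling suppressor, was higher on day 3 by 0.55 and 0.82. Irf9, a partner of the STAT proteins in interferon signalling, was higher on day 14 by 0.51 and 0.37. Ptk2, the focal adhesion kinase, was higher by 0.37 on day 14 at 3 months and by 1.13 and 0.33 on days 3 and 14 at 12 months. Nck2, an adaptor, stood at -0.36 on day 14 at 3 months and at -0.55 and -0.35 at 12 months.

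The other receptors and bridging molecules for dying cells were lower or not called. Of 15 tested among 22, none was higher by limma in any of the 4 hemisphere comparisons, and 5, 4, 4 and 3 were lower, with medians of -0.12, -0.01, -0.12 and -0.12. Of all genes, 8.95%, 7.09%, 10.0% and 5.94% were called lower in these comparisons as deposited. After quantile normalization 8, 7, 6 and 7 of the list were lower, for which no share of all genes is given. Havcr2, the phosphatidylserine receptor TIM-3, was lower in all 4, at -1.02, -0.57, -0.97 and -0.67. Cd300lf, an inhibitory lipid receptor, was at -0.53, -0.48, -0.39 and -0.63. Mfge8, a secreted bridge between phosphatidylserine and integrins, was lower on day 3, at -0.92 and -0.84, and on day 14 stood at -0.35 and -0.34 (limma, adjusted p = 0.051 and 0.065). Trem2, a lipid receptor, fell by 0.53 on day 3 at 3 months and by 0.53 at 12 months.

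Engulfment genes act after the receptor has bound. Of 13 tested among 16, those higher and lower were 2 and 2, 6 and 1, 4 and 1, and 4 and 1, with medians of 0.03, 0.16, 0.12 and 0.14. Abca1, the cholesterol exporter, rose in all 4 (1.09, 2.25, 1.15 and 1.96), as did Rac2, a GTPase of haematopoietic cells (0.63, 0.38, 0.78 and 0.32). Elmo1, which activates Rac with its partner Dock proteins, was lower in all 4 (-0.55, -0.45, -0.45 and -0.54). Elmo2, of the same family, went the other way at 12 months, higher by 0.62 on day 3 and 0.50 on day 14. Of the lipid-sensing nuclear receptors, their partners and sterol targets, a list that shares Abca1, 12 of 14 were tested, and those higher and lower were 6 and 2, 5 and 0, 4 and 1, and 5 and 0, with medians of 0.22, 0.22, 0.15 and 0.22. Apoc1, an apolipoprotein, was higher by 3.23, 3.74, 2.21 and 3.37, and Rxra, the retinoid X receptor alpha, by 1.04, 1.07, 1.09 and 1.13. The hemisphere effect of Abca1 was larger on day 14 by 1.16 ± 0.12 at 3 months (limma interaction, adjusted p = 3.7e-07) and by 0.81 ± 0.12 at 12 months (limma interaction, adjusted p = 3.0e-05).

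Genes of the type I interferon response, which TAM signalling is known to restrain, were higher in the injured hemisphere mostly on day 14. Of 19 tested among 20, those higher and lower were 5 and 1 on day 3 and 13 and 0 on day 14 at 3 months, and 3 and 1, then 10 and 0, at 12 months, with medians of 0.26, 0.54, 0.17 and 0.47. Mx1, an antiviral GTPase, was higher in all 4, by 0.95, 2.25, 1.10 and 2.19. On day 14 Mx2 was higher by 1.70 and 1.67, Usp18, a brake on the interferon receptor, by 1.46 at 3 months, and Irf7, an interferon regulatory factor, by 1.22 at 12 months. The list's mean on the ipsilateral arrays was 5.99 to 6.12 on day 3 and 6.52 to 6.65 on day 14 at 3 months, beside 6.17 to 6.58 in sham. At 12 months it was 6.12 to 6.27 and 6.67 to 6.75, beside 5.89 to 6.20 in sham. In the opposite hemisphere at 3 months, 14 of the 19 were lower than in sham on day 3 and 12 on day 14. In these comparisons 37.2% and 28.4% of all genes were called lower. After quantile normalization 12 and 9 of the list were lower, for which no share of all genes is given.

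**Figure D4:**
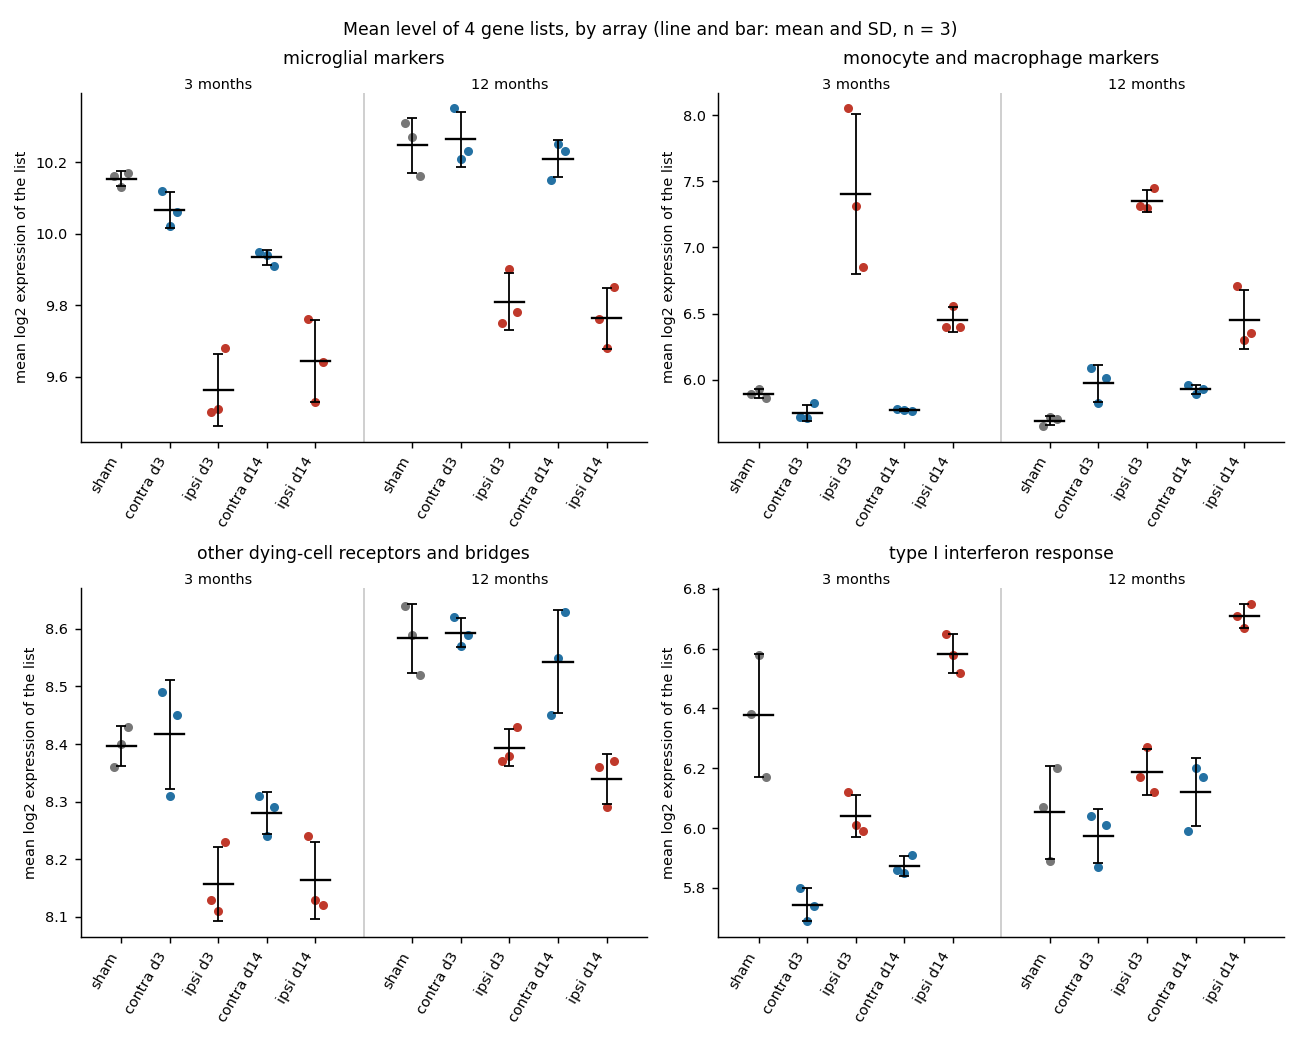
Mean log2 expression over the tested genes of 4 lists (microglial markers, monocyte and macrophage markers, other dying-cell receptors, type I interferon response) on each array, by group; points are arrays, lines and bars are the mean and SD of 3 arrays. The monocyte and macrophage markers are highest in the ipsilateral hemisphere on day 3, and the interferon genes of the ipsilateral hemisphere are higher on day 14 than on day 3.

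Marker genes of infiltrating monocytes and macrophages were higher in the injured hemisphere as well, most of them on day 3. Of 13 tested markers of infiltrating monocytes and macrophages (18 on the list, with Lgals3 on both lists), 13 were higher on day 3 and 5 on day 14 at 3 months, and 12 and 6 at 12 months, with 0, 1, 0 and 1 lower. Their mean was 6.85 to 8.05 on day 3 and 6.40 to 6.56 on day 14 on the ipsilateral arrays at 3 months, beside 5.71 to 5.82 and 5.76 to 5.78 on the contralateral arrays. At 12 months it was 7.30 to 7.45 and 6.30 to 6.71, beside 5.82 to 6.09 and 5.89 to 5.96. The list's hemisphere effect fell from day 3 to day 14 for 6 genes at 3 months and for 5 at 12 months. It rose for 1 gene at each age. Of all genes, 1.24% and 3.59% were called lower in that comparison, and 2.57% and 1.75% higher. The part of these markers in the members' values was not tested.

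Of 6 tested border macrophage markers, 5 and 2 were higher on days 3 and 14 at 3 months and 6 and 2 at 12 months, and 1 was lower on day 14 at each age. Their mean on the ipsilateral arrays was 7.65 to 7.91 on day 3 and 5.90 to 5.99 on day 14 at 3 months, and 7.24 to 7.87 and 5.77 to 6.88 at 12 months. Between hemispheres on day 14, those called were Folr2 (0.73 and 1.15), Pf4 (0.66 and 0.71) and Lyve1 (-1.37 and -1.38). Mrc1, Cd163 and F13a1 were not called there at either age. Of 14 neutrophil markers, 5, 2, 2 and 1 were higher and 0, 3, 0 and 1 lower. Of 11 tested T and NK cell markers, 1, 3, 1 and 3 were higher and 1, 0, 1 and 0 lower. Beside these counts, 11.5%, 13.2%, 18.7% and 10.9% of all genes were higher and 8.95%, 7.09%, 10.0% and 5.94% lower. Foxj1, Rarres2, Folr1 and Kl, markers of ependyma and choroid plexus, were not called between the hemispheres. Against sham at 3 months, Rarres2 was called higher on days 3 and 14, by 0.38 and 0.30 (ipsilateral) and 0.39 and 0.55 (contralateral). Folr1 was called higher there by 0.35 (ipsilateral, day 3). In these comparisons 34.4% to 56.8% of all genes were called in either direction. Among the oligodendrocyte precursor markers Pdgfra, Cspg4, Gpr17, Sox10 and Bcan, limma called only Cspg4 between the hemispheres, lower on day 3 (-0.56 and -0.31). Against sham on day 3, ipsilateral Cspg4 was at 0.07 and 0.01, neither called. Contralateral Cspg4 was at 0.63 (called) and 0.32 (not called). Also called against sham on day 3 were Sox10 at 3 months (0.32 ipsilateral, 0.33 contralateral) and ipsilateral Pdgfra at 12 months (-0.22). Microglial markers were lower in the injured hemisphere: 8, 7, 9 and 7 of 13 were lower and 1, 1, 0 and 1 higher, and their mean was 9.50 to 9.90 on the ipsilateral arrays and 9.91 to 10.35 on the others. Tmem119, picked after its values were seen, stood at -1.52, -1.36, -1.37 and -1.38, and Sall1, which is also among the genes most like Mertk, at -0.85, -0.30, -0.64 and -0.48. The contralateral day 3 array with the high Axl value at 12 months, replicate 1, had a monocyte and macrophage mean of 6.09 beside 5.82 and 6.01, and a microglial mean of 10.35 beside 10.21 and 10.23. Their part in the values of Mertk, Pros1 and Axl was not tested.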

How the data were processed

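The deposited log2 values cover 29214 probe sets and 30 arrays; per the submitters' processing notes, without versions, the authors ran RMA in Affymetrix Expression Console. RNA with integrity numbers above 7.0 had been amplified from 50 ng, and 5 µg of cDNA was used, per the labels' protocols. Of the probe sets, 15310 had 1 gene symbol, 323 several and 13581 none listed. Symbols were updated through RefSeq's GRCr8 table (15279 by gene identifier, 6 by accession, 25 kept). Each gene was taken from its probe set with the highest mean, if above the array's 30th percentile on at least 3 arrays.

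Group means were compared with limma 3.58.1 (R 4.3.3) in 1 model over 30 arrays (residual degrees of freedom 20, prior 8.8), with Benjamini-Hochberg adjustment, called at 0.05, in 21 comparisons. No samples were dropped, and no array pair was identical. Arrays of a group correlated at 0.9865 to 0.9953. The number of arrays limits the precision. Sample codes pair the hemispheres of 12 animals, whose deviations from the group means correlated at -0.08 to 0.21. The script was tested on simulated data. Of each pathway list, genes called in 1 direction in all 4 hemisphere comparisons, and the 3 called genes with the largest difference in each, could be named. Members and lists were chosen with earlier results of these data known.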

Additional observations from a re-analysis of the deposited data

Results flagged for a closer look

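In 4 results a hemisphere effect differed between day 3 and day 14 after stroke by a test of the difference itself, the interaction term in limma. The ipsilateral excess of Axl was larger on day 14 by 1.57 at 3 months and by 2.30 at 12 months. That of Gas6 was larger on day 14 by 0.52 at 3 months and by 0.49 at 12 months. The Gas6 call was lost in 3 of 12 fits with 1 array left out at 3 months and in 4 of 12 at 12 months. At 3 months it was also lost with the animal as a fixed replicate block, the compared arrays alone or the arrays of 1 age. The Axl call was lost in 0 of the 12 fits with 1 array left out at each age. With groups of 3 arrays, no test for single arrays that stand apart was run, but each array was left out in turn.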

How the results depend on the processing

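Over 11 settings and the arrays left out in turn, 1705 of 1804 values of the 5 genes kept their direction and their side of the threshold, 33 lost a call, 9 gained one and 57 changed sign, of which 56 were called in neither fit. The cause of these changes was not tested. The direction and call of Axl and Mertk between the hemispheres held in every one of these fits. Quantile normalization gave Pros1 between hemispheres on day 14 at 3 months -0.26. The Gas6 difference on day 3 at 12 months was called with arrays centred (0.26) and with array weights (0.21). The number of members called went from 4 to 2 for contralateral minus sham on day 3 at 3 months and from 1 to 2 for age in sham, both with quantile normalization. For the day difference of the hemisphere effect at 3 months it went from 2 to 1 with the compared arrays alone, the arrays of 1 age, or the animal as a fixed replicate block. The replicate block changed no other call. Values that changed sign with quantile normalization were Tyro3 between hemispheres at 12 months (0.00 on day 3, 0.02 on day 14), Gas6 at 3 months ipsilateral minus sham on day 3 (0.20) and contralateral minus sham (0.14 on day 3, 0.23 on day 14), Tyro3 ipsilateral minus sham on day 3 at 12 months (0.04) and day 14 minus day 3 (-0.05), Pros1 contralateral day 14 minus day 3 at 3 months (-0.09) and day difference of the hemisphere effect at 12 months (0.07), and Mertk for age in the hemisphere effect on day 3 (-0.01). With centred arrays Tyro3 at 12 months did so at 0.02, 0.01 and -0.02, and with array weights Tyro3 (0.04) and Pros1 (0.03 and -0.01) did.

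Ranges with 1 array left out in turn follow for results that crossed 0 and for Pros1 on day 14 at 12 months. Other crossings of the threshold stand with their results. Between hemispheres, Pros1 on day 14 at 12 months ran from -0.44 to -0.32, and Tyro3 from -0.09 to 0.13 (day 3, 3 months), -0.16 to 0.03 (day 3, 12 months) and -0.08 to 0.04 (day 14, 12 months). Against sham, ipsilateral Tyro3 ran from -0.03 to 0.19 (day 14, 3 months), -0.14 to 0.05 (day 3, 12 months) and -0.10 to 0.04 (day 14, 12 months). Contralateral Gas6 ran from -0.14 to 0.02 (day 14, 3 months), Axl from -0.19 to 0.35 (day 3, 12 months), Tyro3 from -0.04 to 0.09 and -0.08 to 0.05 (12 months), and Pros1 from -0.05 to 0.07 (day 14, 12 months). From day 3 to day 14, Tyro3 ran from -0.21 to 0.05 (ipsilateral, 3 months), -0.08 to 0.11 (ipsilateral, 12 months) and -0.08 to 0.02 (contralateral, 12 months), contralateral Pros1 at 3 months from -0.07 to 0.10, and contralateral Gas6 at 12 months from -0.09 to 0.03. Axl by age in sham rats ran from -0.13 to 0.12. For the change of the hemisphere difference between days at 12 months, Tyro3 ran from -0.04 to 0.15 and Pros1 from -0.09 to 0.04. For its difference between ages on day 3, Axl ran from -0.40 to 0.14 and Tyro3 from -0.20 to 0.03. The number of the 5 genes called ran from 2 to 3 (contralateral against sham, day 3, 3 months), 0 to 1 (contralateral by day at 12 months, and sham by age) and 1 to 2 (hemisphere difference by day, at each age). Counts over all genes also moved by over 1.5 times: between hemispheres on day 14 at 3 months, 2365 became 1412 with the compared arrays alone and 1362 with the fixed replicate block, and contralateral against sham on day 14 at 3 months, 4522 became 2669 after quantile normalization. Contralateral by day at 3 months, 1185 became 97 with the compared arrays alone, 503 with the arrays of 1 age and 498 with array weights. For the day difference of the hemisphere effect at 3 months, 445 became 141, 232 and, with the fixed replicate block, 116. For its age difference on day 3, 184 became 106 with quantile normalization. With array weights, that 184 became 353, age in sham 1516 became 2637, and at 12 months contralateral against sham on day 3 went from 150 to 460 and contralateral by day from 124 to 278. With 1 array left out, contralateral against sham at 12 months went from 150 to between 61 and 207 on day 3 and from 1 to between 0 and 1 on day 14. Contralateral by day went from 1185 to between 559 and 1129 at 3 months and from 124 to between 58 and 131 at 12 months, and age in sham from 1516 to between 848 and 1227. The day difference of the hemisphere effect went from 445 to between 255 and 568 at 3 months and from 623 to between 412 and 649 at 12 months, and its age difference from 184 to between 87 and 261 on day 3 and from 1 to between 1 and 8 on day 14. Tyro3 was not tested with the filter at the array median.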
